A study of Mus musculus with 15 samples.

Results

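Neurons and microglia isolated magnetically from the cerebral cortex were compared gene by gene, using 10 of the 15 polyA RNA-seq libraries of the study. The mice were wild-type males aged 28 postnatal days in both groups, no treatment is named, and each group had 5 libraries (n = 5 per group). The 5 remaining libraries, of astrocytes, were not part of the comparison. Genes entered it when they reached 1 TPM in at least 5 of the 10 libraries, which kept 12594 of 20610 genes. TPM, the share of transcripts on a fixed total, is a level scaled for transcript length and for the total of the library. The labels do not say which animals gave which library, or which antibodies or columns were used in the isolation, so p-values measure the spread between libraries, which may be technical. Levels below are TPM, and differences are on the log2(TPM + 1) scale as neurons minus microglia, so that a positive value is higher in neurons; folds are taken from these differences. A gene was called when its limma test gave a Benjamini-Hochberg adjusted p below 0.05 and its difference was at least 2-fold on that scale, which understates the fold of genes at low levels. A gene expressed in 1 group alone could pass the filter through that group, so counts of called list members describe the members that passed.

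Neurons signal by voltage-gated channels that fire action potentials, by vesicles that SNARE proteins fuse with the presynaptic membrane, and by ligand-gated receptors on the receiving cell; many cortical interneurons also release neuropeptides. Microglia are the resident macrophages of brain parenchyma. They survey tissue with motile processes guided by purine receptors, depend on the growth factor receptor CSF1R, and carry receptors for complement, immunoglobulin and microbial products together with a large lysosomal system. The myeloid factor PU.1, encoded by Spi1, binds DNA at purine-rich sites with an ETS core. Neuropeptide genes such as Sst are known targets of CREB, which binds the cyclic AMP response element.

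Promoters of genes with large differences are shown because both kinds of site could be looked for in them, and the 4 were taken from those that hold one. Each line gives 120 bases 5′ to 3′ on the gene's strand from RefSeq's GRCm38.p6 table. Capitals mark AGGAAG or its reverse complement CTTCCT (a longer motif around the ETS core GGAA) in the first 3. In Sst they mark TGACGTCA (the cyclic AMP response element). Other GGAA or TTCC in the first 3 windows are not marked. P2ry12 (chr3:59262986-59263105, minus strand) encodes a receptor for ADP, C1qb (chr4:136886201-136886320, minus strand) a chain of complement C1q, Trem2 (chr17:48346281-48346400, plus strand) a lipid-sensing receptor, and Sst (chr16:23890845-23890964, minus strand) somatostatin, picked after its values were seen.
P2ry12: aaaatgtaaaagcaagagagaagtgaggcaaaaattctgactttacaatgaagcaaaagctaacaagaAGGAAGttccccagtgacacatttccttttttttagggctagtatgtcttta
C1qb: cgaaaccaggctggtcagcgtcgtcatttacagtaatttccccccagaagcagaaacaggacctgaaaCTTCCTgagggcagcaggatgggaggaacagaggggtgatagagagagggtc
Trem2: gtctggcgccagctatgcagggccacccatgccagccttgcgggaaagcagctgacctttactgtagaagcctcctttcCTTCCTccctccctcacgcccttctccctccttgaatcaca
Sst: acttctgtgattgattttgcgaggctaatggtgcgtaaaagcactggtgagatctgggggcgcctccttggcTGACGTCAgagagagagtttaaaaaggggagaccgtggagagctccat

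The marked motif ends between 36 and 47 bases before RefSeq's start in these 4 windows. Of the genes with the largest differences and the markers, 10 of 15 in microglia and 12 of 16 in neurons had an entry in the table; AGGAAG was in 7 of the 10 and 7 of the 12, and TGACGTCA in 0 of either. On either strand of the 250 bases before the start, AGGAAG occurred in 29.5% of all 32851 promoters of the table and in 28.1% of those of tested genes. It was in 40.8% of promoters of genes called higher in microglia and in 181 of 362 where the difference was at least 8-fold, against 26.9% and 27.7% for genes higher in neurons. TGACGTCA was found in 1.55% of all promoters, 2.49% of those of tested genes, 2.39% for genes higher in neurons and 1.23% for genes higher in microglia. At differences of at least 8-fold the shares with TGACGTCA were 3.04% (17 of 560) and 0.276% (1 of 362). A gene can have more than 1 promoter in the table, and these shares describe letters in a window, not binding.

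In all, 5100 of the 12594 genes tested were called (40.5%), of which 3815 were higher in neurons (30.3%) and 1285 higher in microglia (10.2%). Counts of list members below are to be read against these shares of all genes. Genes higher in neurons were more numerous and genes higher in microglia differed more steeply. Differences of at least 8-fold were reached by 515 genes higher in neurons (4.09%) and by 375 higher in microglia (2.98%), and a log2 difference of 7 or more by 0 and 42. The largest were 6.73 for Itm2a and -10.41 for P2ry12. The split in direction depended on scaling. Of called genes 74.8% were higher in neurons on the deposited TPM scale, 56.1% after median-of-ratios scaling (2555 genes against 2003, or 20.3% and 15.9% of those tested) and 55.6% after quantile normalization (2394 against 1913, or 19.0% and 15.2%), and these moved the median difference of all genes from 0.48 to -0.04 and to 0.03. All 2555 and all 2394 of those neuron calls were among the 3815, and all 1285 microglia calls were kept in both. Groups did not overlap for 6921 of the genes tested (55.0%).

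**Figure D1:**
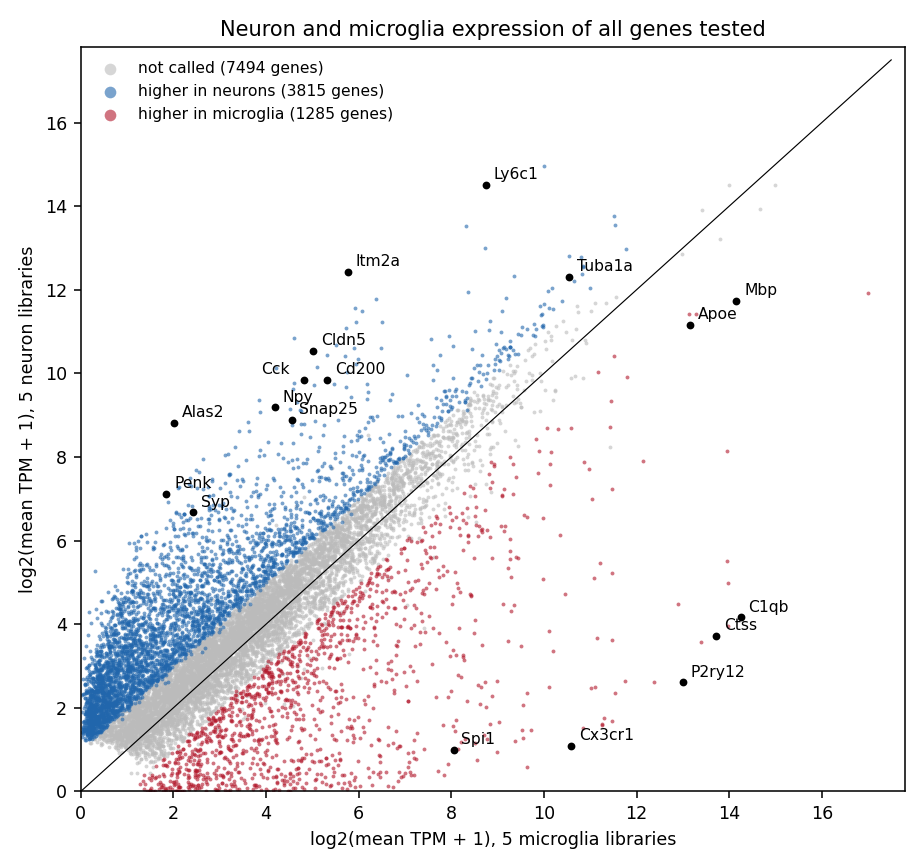
Each point is 1 of 12594 genes, at its log2(mean TPM + 1) in the 5 microglia libraries (x axis) and the 5 neuron libraries (y axis), coloured by call, with the line of equal levels. Genes higher in microglia, such as P2ry12 and C1qb, lie farther from the line than genes higher in neurons such as Itm2a and Penk.

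The libraries held different numbers of genes and a different concentration of transcripts. Between 12253 and 12831 genes were at 1 TPM or more in a neuron library and between 10598 and 11152 in a microglia library. The 10 most abundant genes took 16.3 to 22.3% of TPM in neurons and 29.4 to 33.4% in microglia. Pearson correlations across genes were 0.962 to 0.987 within neurons, 0.928 to 0.989 within microglia and 0.636 to 0.775 between them; genes are not independent replicates. Libraries numbered 1 and 2 stood apart from those numbered 3 and 4 in both groups. Fth1, the heavy chain of the iron store ferritin, was at 41341, 44039.7, 6673, 6533 and 18348 TPM in neuron libraries 1 to 5 and at 30478, 25099.6, 9554, 5521 and 10672 TPM in microglia libraries 1 to 5. Camk2a, a kinase of excitatory synapses, was at 225, 260.4, 16.6, 19.5 and 137 TPM in neuron libraries 1 to 5 and at 41.6, 46.4, 4.89, 2.25 and 41.8 TPM in microglia libraries 1 to 5. It was higher in neurons at each of the 5 library numbers. Its difference of 2.16 did not pass in the limma test without a block (adjusted p = 0.0599) and passed with the library number as a block (adjusted p = 2.19e-05). The labels do not say what a number stands for, so a paired design is not established. List counts without the libraries numbered 1 and 2, or those numbered 3 and 4, are given where they move by over 1.5 times.

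Markers set the 2 isolates apart by their labels, and they also showed RNA of other cells. All 17 tested pan-neuronal markers were higher in neurons (median difference 3.48), summing to 1529 to 3192 TPM in neuron libraries and 31.3 to 230.1 TPM in microglia libraries. Of these, Elavl3 was no longer called when any 1 library was left out apart from microglia 1 or 2 (differences of 0.63 to 1.09). All 24 microglia markers were higher in microglia (median -9.21), with sums of 102258 to 161235 TPM against 152 to 255 TPM. Microglial genes were thus low in all 5 neuron libraries, and the highest neuronal sums in microglia were in libraries 1, 2 and 5 (194, 230.1 and 158 TPM, against 54.7 and 31.3 in 3 and 4). Inhibitory neuron markers were higher in neurons for 11 of 12 tested genes, with sums of 521 to 1568 TPM, and excitatory markers for 7 of 11 (4 after quantile normalization), with sums of 470 to 1281.

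Vascular genes were abundant in the neuron libraries. All 13 endothelial markers were higher there, with sums of 29731 to 43983 TPM against 371 to 791 TPM in microglia, and all 10 tested mural cell markers, with sums of 2395 to 4529 against 88.7 to 218 TPM. The endothelial sum of every neuron library exceeded its pan-neuronal sum. The part of vascular RNA in the levels of genes higher in neurons was not tested for any gene, P2ry14, Axl and Spp1 below among them. Ly6c1 made up most of the endothelial sum (20119 to 31922 TPM), a gene with a near-identical neighbour, Ly6c2, so that its level is uncertain. Oligodendrocyte precursor markers were higher in neurons for 10 of 12 genes (6 after quantile normalization), and red blood cell precursor markers for 3 of 3 tested of 10 (Alas2 among them). Choroid plexus and ependymal markers were higher in neurons for 4 of 4 tested of 8, and Kl, Clic6, Foxj1 and Otx2 did not pass the filter. In the microglia libraries the 10 border macrophage markers were all higher, with sums of 1332 to 2015 against 38.9 to 70.1 TPM. Among astrocyte markers 7 of 14 were higher in microglia and 2, Gja1 and Gjb6, in neurons; neither of these was called after either scaling, and Gjb6 was lost without neuron 3, 4 or 5 or microglia 2, 3 or 4 (differences of 0.71 to 0.98). Without the libraries numbered 3 and 4 the counts were 6 and 0. The astrocyte sums were low in both (321 to 756 and 202 to 360 TPM). Among lymphocyte and granulocyte markers the neutrophil genes S100a8 and S100a9 were higher in microglia, and the lymphocyte genes Cd79a and Cd3d in neurons; Cd3d was no longer called without neuron 1 or 4 or microglia 1 or 5 (differences of 0.94 to 1.21), nor without the libraries numbered 1 and 2 or microglia libraries 1 and 2. Median-of-ratios scaling gave 3 and quantile normalization 4 of these 7 genes as higher in microglia. In bulk RNA, fewer cells of a type and less RNA per cell cannot be told apart.

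Of the 13 marker sums, that of myelin genes varied most from library to library. The 12 oligodendrocyte markers summed to 8493, 10389, 221, 248 and 1651 TPM in neuron libraries 1 to 5 and to 69938, 52216, 6802, 255 and 8205 TPM in microglia libraries 1 to 5. Microglia libraries 1 and 2 were far above the others, and microglia libraries 3, 4 and 5 lay within the range of neurons. Of the 12, 5 were called higher in microglia (among them Mag, Mog, Cnp and Ermn) and 0 without microglia libraries 1 and 2; 9 were with the library number as a block, 1 without the libraries numbered 1 and 2 and 11 without those numbered 3 and 4. Leaving out 1 library gave between 1 (without neuron 3 or 4 or microglia 1 or 2) and 11 (without microglia 4), and 3 without microglia 3 or 5. Mbp, the main myelin protein, was at 49353, 32254, 3425, 137 and 5902 TPM in microglia libraries 1 to 5 and at 6914, 8844, 36.7, 66.6 and 1077 TPM in neuron libraries 1 to 5. It did not pass in the limma test without a block (adjusted p = 0.159) and passed with the library number as a block (adjusted p = 0.00555). Over all genes, leaving out microglia libraries 1 and 2 gave 4018 genes higher in neurons and 1444 higher in microglia.

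**Figure D2:**
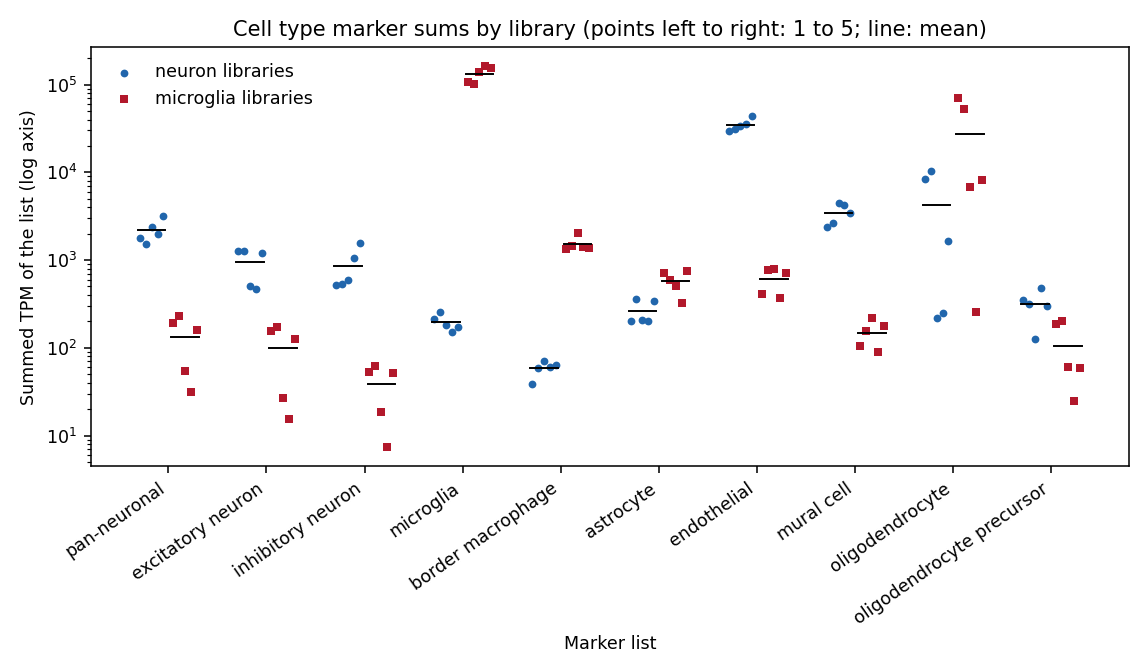
Summed TPM of 10 of the 13 marker lists (x axis) in the 5 neuron and 5 microglia libraries (points, from left to right libraries 1 to 5), on a log y axis, with the mean as a line. Microglia markers part the groups most (152 to 255 against 102258 to 161235 TPM), endothelial markers are highest in neuron libraries, and oligodendrocyte markers spread from 255 to 69938 TPM among microglia libraries.

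Surface receptors and complement C1q had the steepest differences in microglia. P2ry12 (chr3:59216272-59262871, mm10) was at 7.88, 6.72, 3.08, 4.17 and 3.61 TPM in neuron libraries 1 to 5 and at 6464, 5548, 7985, 11346 and 9411 TPM in microglia libraries 1 to 5. The groups were separated 1356-fold (difference -10.41, SE 0.25, adjusted p = 6.88e-12), and every microglia library exceeded every neuron library. C1qb (chr4:136880129-136886187) was at 18.5, 28.2, 13, 8.66 and 16.1 TPM in neuron libraries 1 to 5 and at 16075, 15717, 19709.7, 21327 and 24385 TPM in microglia libraries 1 to 5 (-10.16, SE 0.25, adjusted p = 8.09e-12). C1qa and C1qc, the other chains of C1q, lie next to it on chr4 and were 931-fold and 1046-fold higher in microglia. Trem2 was at 2.66, 3.53, 1.22, 1.55 and 2.83 TPM in neuron libraries 1 to 5 and at 1877, 1901, 2783, 3349 and 2576 TPM in microglia libraries 1 to 5, a 751-fold difference. Others among the 15 largest were Ctss, a lysosomal protease (-10.07), Siglech (-9.84), a receptor of the Siglec family, Selplg (-9.77), a selectin ligand, and Gpr34 (-9.72), a lysophospholipid receptor. So were Fcrls (-9.63), the fractalkine receptor Cx3cr1 (-9.50), Csf1r (-9.29), the immunoglobulin receptor Fcgr3 (-9.20) and Ly86 (-9.14), a partner of the Toll-like protein Cd180. The 15 were picked among called genes whose groups did not overlap, so their lack of overlap was set by that choice. Of all genes tested, 55.0% did not overlap.

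**Figure D3:**
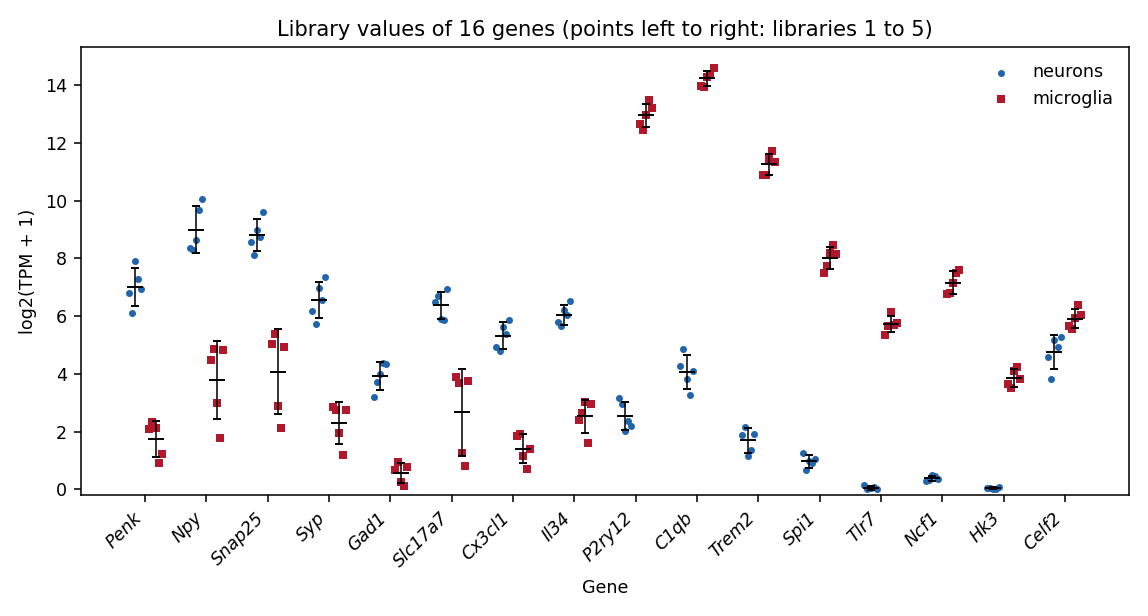
Values of 16 genes as log2(TPM + 1), with 5 neuron libraries (circles) and 5 microglia libraries (squares) for each gene, points from left to right being libraries 1 to 5, and the mean with its SD in black. Groups are apart for every gene shown; Celf2, the last, has the narrowest gap.

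Complement genes were called in both directions. Of 17 tested, 11 were higher in microglia, among them C1q, the receptors C5ar1, C5ar2 and C3ar1, both chains of complement receptor 3 (Itgam and Itgb2), C4b and C2. The 5 higher in neurons were 4 genes whose products restrain complement (Cd55, Cd59a, Serping1 and Csmd1) and the protease C1s1. Cd59a, which blocks the membrane attack complex, was at 108, 109.6, 147, 156 and 303 TPM in neuron libraries 1 to 5 and at 6.63, 9.52, 8.85, 4.11 and 9.39 TPM in microglia libraries 1 to 5 (18.2-fold, adjusted p = 4.68e-08). Csmd1, a large membrane protein of neurons, was at 6.75 ± 1.93 TPM in neurons (mean ± SD, n = 5) and 0.26 ± 0.0765 TPM in microglia, and Serping1, the C1 inhibitor, at 52.7 ± 19.6 and 6.06 ± 2.23 TPM. C5ar1, receptor of the C5a fragment, was at 0.14 to 0.74 TPM in neurons and 57.2 to 112 TPM in microglia. Endothelial transcripts were high in the same neuron libraries, and their part in the values of Cd59a, Cd55, Serping1 and C1s1 was not tested. The count of 5 and 11 was the same after both scalings.

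Genes of immunoreceptor signalling were higher in microglia without exception among those tested. Of 23 genes of Fc receptors and ITAM signalling, the tyrosine motif by which such receptors activate kinases, 23 were higher in microglia and 0 in neurons (median -5.20, against 0.48 for all genes). Tyrobp, the adaptor of Trem2, was at 43.5, 50.3, 51.9, 34.6 and 42.2 TPM in neuron libraries 1 to 5 and at 13316, 12681, 18484, 17877 and 16907 TPM in microglia libraries 1 to 5 (348-fold). Fcer1g, the common Fc receptor chain, was 346-fold and the inhibitory receptor Fcgr2b 186-fold higher. Toll-like receptors and their signalling genes were higher in microglia for 15 of 18, the exceptions being Irak1, Irak3 and Traf6, which were not called. Tlr7, an endosomal sensor of RNA, was at 0 to 0.11 TPM in neurons and 39.3 to 69.9 TPM in microglia, and Cd14, a co-receptor for lipopolysaccharide, at 1.56 ± 0.537 and 418 ± 120.3 TPM. Of 13 inflammasome and interleukin-1 genes 12 were higher in microglia, among them Il1a (0.09 ± 0.106 against 64.1 ± 25.4 TPM), the adaptor Pycard (21.2 ± 9.16 against 558 ± 139.7 TPM) and the sensor Nlrp3 (0.038 ± 0.061 against 15 ± 9.52 TPM). The receptor Il1r1 went the other way, at 2.96, 2.89, 6.01, 4.65 and 6.17 TPM in neurons and 0.1, 0.29, 0.59, 0.29 and 0.38 TPM in microglia. Endothelial transcripts were high in the same neuron libraries, and their part in the values of Il1r1 was not tested.

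Lysosomal and phagocytic genes followed, with a few in the opposite direction. Of 25 lysosomal proteases and enzymes 20 were higher in microglia and 1, the collagen-cleaving Ctsk, in neurons (median -2.37). Ctsd, an aspartic protease, was at 219, 225, 354, 315 and 288 TPM in neuron libraries 1 to 5 and at 13155, 10829, 15013, 19552 and 21046 TPM in microglia libraries 1 to 5, and Lgmn, an asparaginyl protease, at 36.7 ± 1.94 and 2828 ± 762 TPM. Ctsk ranged over 12.4 to 32 TPM in neurons and 1.08 to 17.8 TPM in microglia, the groups overlapped, and the call was lost after either scaling and without the libraries numbered 3 and 4. Of 19 genes of the NADPH oxidase and phagosome 16 were higher in microglia. Ncf1, a cytosolic oxidase subunit, was at 0.24 to 0.41 TPM in neurons and 108 to 193 TPM in microglia, Slc11a1, a metal pump of phagosomes, 42.3-fold higher in microglia, and the proton channel Hvcn1 37.7-fold. Mertk and Axl, related receptors that bind Gas6 on dying cells, went in opposite directions. Mertk was at 3.07 ± 0.728 TPM in neurons and 42.8 ± 11.6 TPM in microglia, and Axl at 17.1 ± 4.6 and 4.39 ± 1.81 TPM (adjusted p = 1.64e-08 and 1.77e-05). Actin regulators of leukocytes were higher in microglia for 19 of 22 genes and for 22 after median-of-ratios scaling; the steepest was the adaptor Fyb (92.2-fold). Rac2, the leukocyte Rac, was at 1.43, 4.16, 3.14, 16.7 and 0.64 TPM in neuron libraries 1 to 5 and at 82.5, 72.3, 69, 140.4 and 78.9 TPM in microglia libraries 1 to 5, so that library 4 was the highest of both groups. Tmsb4x, which binds actin monomers, was among the most abundant genes of both, at 21962 to 25009 TPM in neurons and 30310.2 to 34073 TPM in microglia.

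Most antigen presentation genes tested were higher in microglia. Of 17 genes 10 were higher in microglia and 1 in neurons (median -1.87), and 12 and 1 were after median-of-ratios scaling. Class II genes were all higher in microglia among those tested: Cd74, the invariant chain, was at 39.7 ± 18.9 TPM in neurons and 596 ± 66.6 TPM in microglia, and H2-Aa at 21.5 ± 11.5 and 258 ± 24.7 TPM. B2m, the light chain of class I, was 3.65-fold higher in microglia, whereas the class I heavy chains H2-K1 (457 ± 131 and 473 ± 110.3 TPM) and H2-D1 (902 ± 181 and 782 ± 139 TPM) did not pass on the TPM scale (adjusted p = 0.782 and 0.316). The co-stimulatory ligand Cd86 was 106-fold higher in microglia; Cd40, a TNF receptor family member, was higher in neurons (33.2 ± 11.7 against 1.68 ± 0.658 TPM). Chemokines and their receptors were higher in microglia for 13 of 20 genes and in neurons for 4. Ccl3 ranged over 1.01 to 2.24 TPM in neurons and 178 to 389 TPM in microglia, and Ccl6 was 188-fold higher in microglia. The 4 higher in neurons were Cx3cl1, Cxcl12 (91.7 ± 15.7 against 7.63 ± 1.87 TPM) and the scavenging receptors Ackr3 (109 ± 16 against 5.83 ± 1.57 TPM) and Ackr1 (10.2 ± 6.91 against 1.35 ± 1.45 TPM, with neuron 3 at 22.5). Cd40, Ackr1, Ackr3 and Cxcl12 were measured in libraries with high endothelial and mural sums, whose part in these values was not tested.

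Receptors for purines did not share a direction. For comparison, 30.3% of all genes tested were called higher in neurons and 10.2% higher in microglia. Of 15 purinergic receptors and ectonucleotidases 7 were higher in microglia and 6 in neurons, and the median of 0.01 turned to -0.41 and -0.64 after median-of-ratios scaling and quantile normalization, which left 4 and 3 in neurons. P2ry13 and P2ry6 were 501-fold and 213-fold higher in microglia, and the ATP-gated channel P2rx7 was at 3.61 ± 0.787 TPM in neurons and 52 ± 9.85 TPM in microglia. P2ry14, a receptor for UDP-glucose in the same cluster on chr3 as P2ry12 and P2ry13, all within Med12l on the other strand, was at 90.8, 95.1, 96.9, 96.1 and 109.5 TPM in neuron libraries 1 to 5 and at 2.11, 5.16, 5.55, 2.07 and 3.37 TPM in microglia libraries 1 to 5, the reverse of its neighbours (adjusted p = 2.14e-09). For adenosine, Adora3 was at 0 to 0.05 TPM in neurons and 15.9 to 28.5 TPM in microglia, while Adora2a was higher in neurons (2.72 ± 0.994 against 0.15 ± 0.116 TPM). Adora1 and Adora2b were called higher in neurons on the TPM scale and not after either scaling.

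Regulators of the myeloid lineage were higher in microglia for 18 of 21 genes and in neurons for 0 (median -2.12). Spi1 was at 1.42, 0.58, 0.97, 0.91 and 1.07 TPM in neuron libraries 1 to 5 and at 179.8, 215, 288, 354 and 284 TPM in microglia libraries 1 to 5 (131-fold, adjusted p = 1.49e-11). Irf8, which acts beside PU.1, was 82.9-fold higher. Mef2c, which neurons use as well, was the least different of the 18, at 144, 89.5, 183, 174 and 190.4 TPM in neurons and 244, 243, 386, 474 and 337 TPM in microglia (difference -1.10); it fell under the 2-fold threshold without neuron 2 (-0.92) or microglia 4 (-0.97). The 3 not called were Fli1, Tal1 and Irf1. Genes known to mark disease-associated microglia were higher in microglia for 14 of 18 and in neurons for 3. Apoe, a lipid carrier, was at 1637, 2092, 2652, 2469 and 2597 TPM in neurons and 9584, 8329, 10289, 7230.2 and 10412 TPM in microglia, and Clec7a, a glucan receptor, at 0.354 ± 0.402 and 28.3 ± 10.5 TPM. The 3 higher in neurons were Axl, the secreted phosphoprotein Spp1 (112 ± 66.5 against 20.2 ± 5.61 TPM) and Csf1.

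In the neuron libraries, neuropeptide genes had the highest median difference of the 28 functional lists. Penk (chr4:4133531-4138819), precursor of the enkephalins, was at 111, 68.6, 237, 153 and 123 TPM in neuron libraries 1 to 5 and at 3.31, 4.05, 3.39, 0.89 and 1.33 TPM in microglia libraries 1 to 5. The lowest neuron library was above the highest microglia library by a wide margin (difference 5.26, SE 0.34, 38.5-fold, adjusted p = 2.89e-08). All 20 tested of 23 precursors and processing genes were higher in neurons (median 3.44), and 18 and 17 were after median-of-ratios scaling and quantile normalization. Npy was at 328, 311, 397, 811 and 1057 TPM in neuron libraries 1 to 5 and at 21.5, 28, 6.9, 2.43 and 27.4 TPM in microglia libraries 1 to 5, and Cck at 537, 411, 1306, 888 and 1421 TPM in neuron libraries 1 to 5 and at 42.6, 43.7, 8.17, 7.5 and 34.7 TPM in microglia libraries 1 to 5. Both peptides were higher in every neuron library than in any microglia library (37-fold and 36.8-fold). Sst (chr16:23889573-23890958) was at 91, 128, 93.8, 99.8 and 367 TPM in neuron libraries 1 to 5 and at 16.3, 17.2, 3.31, 0.87 and 11.3 TPM in microglia libraries 1 to 5; neuron 5 was well above the other 4. Vip, a peptide of another interneuron class, was 12.7-fold higher, and Tac2 was listed at 0 in 3 microglia libraries and at 17.3 to 57.2 TPM in neurons. The processing enzyme Cpe had the smallest difference (1.28), with 78.9 to 304 TPM in microglia, and fell under 2-fold without microglia 4 (0.95) and after both scalings.

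Genes of vesicle release were higher in neurons for 23 of 26 and in microglia for 0 (median 2.54), and for 19 and 18 after the scalings. Snap25 (chr2:136713453-136782428), a SNARE of the presynaptic membrane, was at 376, 279, 509.9, 427 and 786 TPM in neuron libraries 1 to 5 and at 31.7, 41.2, 6.49, 3.38 and 29.6 TPM in microglia libraries 1 to 5 (difference 4.73, SE 0.57, adjusted p = 7.98e-06). Syp, a vesicle membrane protein, was 19.2-fold and the vesicle GTPase Rab3a 9.08-fold higher. Of 13 genes that make, load or clear GABA and glutamate 8 were higher in neurons, and 6 after each scaling, which made 1, the chloride importer Slc12a2, higher in microglia. Gad1 and Gad2, which make GABA, were at 14.9 ± 5.01 and 8.76 ± 3.26 TPM in neurons and at 0.508 ± 0.356 and 0.274 ± 0.206 TPM in microglia. Slc17a7, the glutamate loader of excitatory vesicles, was at 88.1, 102, 59.3, 57.5 and 122 TPM in neuron libraries 1 to 5 and at 13.9, 11.8, 1.42, 0.75 and 12.4 TPM in microglia libraries 1 to 5. The chloride exporter Slc12a5 of mature neurons was 5.66-fold higher in neurons.

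Most receptor and channel genes tested were higher in neurons, potassium channels excepted. Ionotropic glutamate receptor genes were higher for 9 of 10 tested of 15, and GABA-A and glycine receptor genes for 12 of 13 tested of 15. Gria2, the AMPA receptor subunit that limits calcium entry, was at 45.5, 29.8, 46.5, 58.9 and 68.8 TPM in neurons and 5.45, 6.7, 4.21, 2.72 and 4.97 TPM in microglia. Grin2b, an NMDA receptor subunit, was at 25, 31.3, 114, 112 and 83.9 TPM in neuron libraries 1 to 5 and at 0.08, 0.23, 9.76, 0.15 and 0.12 TPM in microglia libraries 1 to 5; microglia 3 stood apart from the other 4. Voltage-gated sodium and calcium channel genes were higher for 11 of 12 tested of 18, and for 7 after quantile normalization. Scn2a was at 8.89 ± 3.14 TPM in neurons and 0.466 ± 0.333 TPM in microglia. Potassium channels did not share a direction. Of 15 tested 6 were higher in neurons (2 after quantile normalization) and 2 higher in microglia, against 30.3% and 10.2% of all genes. The 2 were both background (leak) channels: Kcnk13, the channel known as THIK-1, at 0.16 to 0.51 TPM in neurons and 13.4 to 28 TPM in microglia (14.7-fold, adjusted p = 2e-09), and Kcnk6 at 0.32 to 0.56 and 11.7 to 18.4 TPM.

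Of 17 tested neuronal transcription factors 14 were higher in neurons and 1 in microglia (median 2.45). Dlx1, a homeobox factor of interneurons, was at 17.1, 10.8, 21.3, 29.1 and 14.4 TPM in neuron libraries 1 to 5 and at 0, 0.37, 0.03, 0.12 and 0.14 TPM in microglia libraries 1 to 5, and Myt1l, which represses non-neuronal genes, at 41.6 ± 7.54 and 2.47 ± 1.99 TPM. The one in microglia was Zeb2, at 13, 14.8, 13.6, 17.7 and 13.8 TPM in neurons and 44.5, 49.2, 53.6, 65 and 57.2 TPM in microglia (3.51-fold). Ebf1 was 10.8-fold higher in neurons; it is also expressed by mural and endothelial cells, and the part of their RNA was not tested. Synaptic adhesion genes were higher in neurons for 20 of 24 (13 and 12 after the scalings, and 15, with 1 in microglia, without libraries numbered 3 and 4; without microglia 4, 1 gene of this list and 1 of the tubulin list were higher in microglia). The presynaptic organiser Nrxn3 was 13.1-fold higher in neurons. Cadm1, a synaptic cell adhesion molecule, did not pass (89.7 ± 21.9 against 103 ± 18.2 TPM, adjusted p = 0.315). Tubulins and microtubule proteins were higher for 18 of 26, for 15 after each scaling, and for 23 without microglia libraries 1 and 2. Tubb3, a neuronal tubulin, was at 134 ± 37.5 and 8.53 ± 6.79 TPM, and Stmn3, which binds tubulin, 26.5-fold higher in neurons. Tuba1a was high in both, at 3879 to 5859 TPM in neurons and 557 to 2479 TPM in microglia, although its reads are hard to tell from those of Tuba1b.

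**Figure D4:**
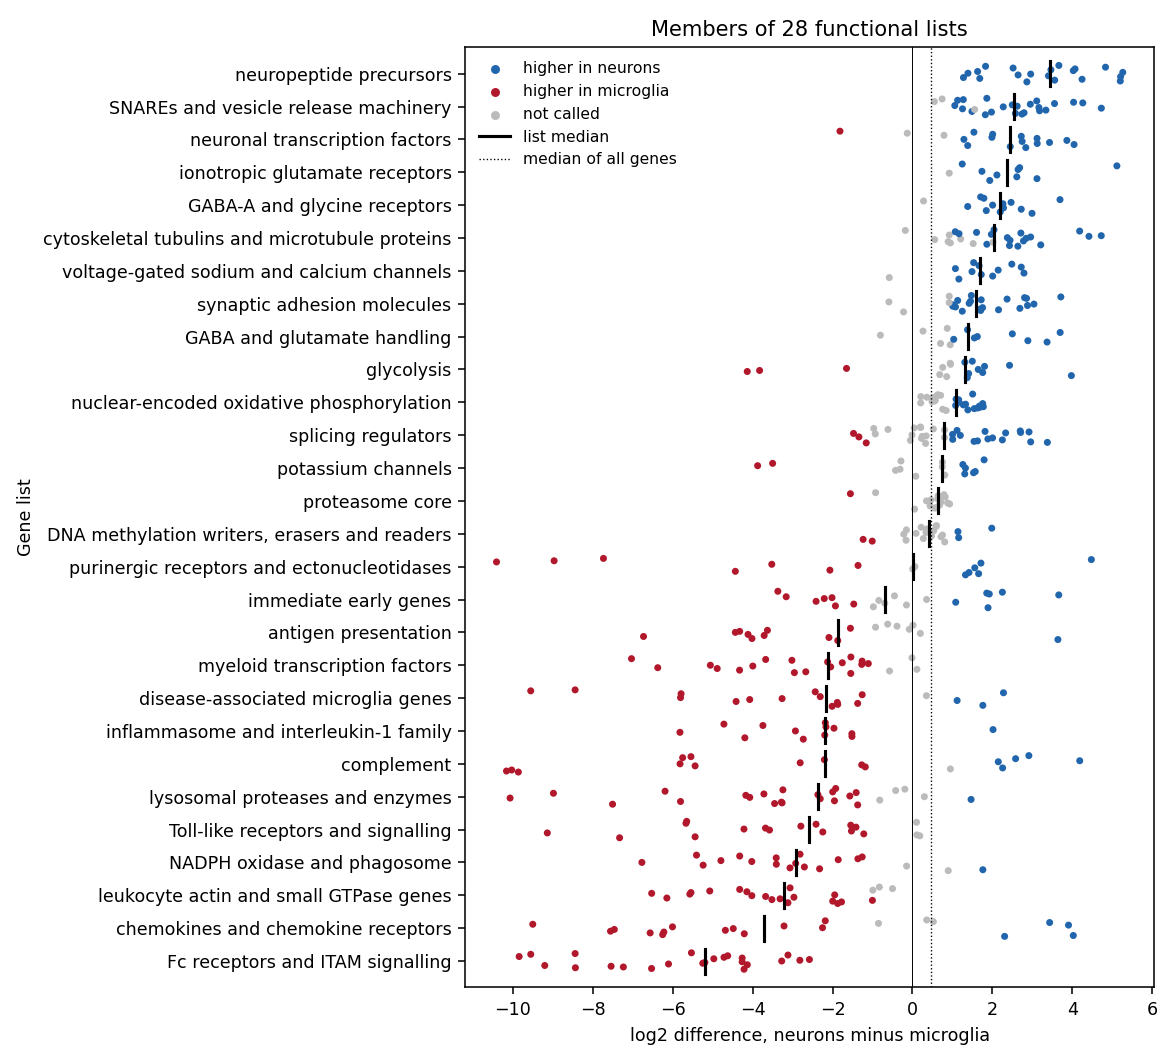
Differences of the tested members (points) of 28 functional lists on the log2(TPM + 1) scale, neurons minus microglia, coloured by call, with each list's median (bar) and the median of all genes (dotted line, 0.48). Neuropeptide precursors have the highest median, 3.44, and Fc receptor and ITAM genes the lowest, -5.20.

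Of the 15 genes with the largest differences in favour of neurons, 5 were on the endothelial list and 0 on the pan-neuronal list. They were Itm2a, Alas2, Car4, Ctla2a, Ly6c1, Igfbp7, Ccnd2, Slco1a4, Cldn5, Ramp2, Pltp, Pglyrp1, Emcn, Tsc22d1 and Penk, of which Itm2a, Car4, Ly6c1, Slco1a4 and Cldn5 are those on the endothelial list. Emcn and Ramp2, for example, are also known from endothelium and were not on it. The remaining genes were not sorted by cell type, so 5 is a lower bound for endothelial genes among the 15. Itm2a was at 5172, 4574, 5963, 6919 and 4784 TPM in neuron libraries 1 to 5 and at 40.6, 67.3, 88.6, 36.4 and 35.4 TPM in microglia libraries 1 to 5 (106-fold, adjusted p = 1.82e-10). Cldn5, the claudin of the blood-brain barrier, was at 977, 1162, 1773, 1553 and 1983 TPM in neuron libraries 1 to 5 and at 23.4, 33.9, 42.2, 23.4 and 33.4 TPM in microglia libraries 1 to 5. Both were high in all 5 neuron libraries, as was the anion transporter Slco1a4 (487 to 846 TPM against 9.82 to 18.1). Alas2, which starts heme production in maturing red cells, measured 357, 430.1, 188, 991 and 289.5 TPM in neurons and 1.16, 6.13, 3.32, 3.4 and 1.17 TPM in microglia. Ccnd2, a cyclin, was at 8.51, 72.5, 16.6, 6.96 and 11.4 TPM in microglia, with library 2 above the rest, and at 536 to 1390.1 TPM in neurons. Penk was the one neuropeptide among the 15, and the pericyte gene Vtn was 27.1-fold higher in neurons.

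Ligands and their receptors were compared in 11 pairs in which one side is known from neurons or other brain cells and the other from microglia. In 5 pairs the ligand was called higher in neurons and the receptor higher in microglia. Csf1r is the receptor both for Il34 and for Csf1, so these pairs are not independent. Single genes were called higher in neurons for 30.3% of all tested and higher in microglia for 10.2%. The pairs were chosen with earlier results of these data known. Cx3cl1, fractalkine, was at 29.3, 26.5, 48.6, 40.3 and 57.8 TPM in neuron libraries 1 to 5 and at 2.64, 2.77, 1.23, 0.63 and 1.64 TPM in microglia libraries 1 to 5, and its receptor Cx3cr1 at 1.22, 2.48, 0.45, 0.72 and 0.78 TPM in neuron libraries 1 to 5 and at 1106, 976, 1548, 2367 and 1732 TPM in microglia libraries 1 to 5. Ligand and receptor were thus apart in every library, by 15-fold and 725-fold in opposite directions. Il34, a ligand of CSF1R, was at 66.9 ± 16.5 TPM in neurons and 5.14 ± 2.1 TPM in microglia, and Csf1r at 1.88 ± 0.831 and 1841 ± 631 TPM. Csf1, the other CSF1R ligand, was lower, at 6.78 ± 3.59 and 2.32 ± 0.436 TPM, and fell under 2-fold without neuron 3 (0.90) and after both scalings. Cd200 was at 668, 729.9, 1223, 1236 and 707 TPM in neuron libraries 1 to 5 and at 34.5, 61.9, 67.4, 23.7 and 7.48 TPM in microglia libraries 1 to 5, and Cd200r1, its inhibitory receptor, at 0 to 0.12 TPM in neurons and 14.3 to 23.5 TPM in microglia. Tgfb2 was 8.33-fold higher in neurons and its receptor Tgfbr1 22.3-fold higher in microglia. Endothelial cells are also known to make Cd200. The part of endothelial RNA in the ligand levels was not tested.

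The other 6 pairs did not show that arrangement. Cd47, the ubiquitous signal read by Sirpa, did not pass (115 ± 25 and 138 ± 13.2 TPM, difference -0.29, SE 0.16, adjusted p = 0.126), while Sirpa was 24.6-fold higher in microglia. Gas6 likewise did not pass (56.5 ± 14.6 and 62.2 ± 14.5 TPM) beside Mertk. Tgfb1 and Pros1, ligands placed on the neuronal side, were higher in microglia (4.82-fold and 3.62-fold), as was Apoe. Pros1 was set beside Axl, which is known as a receptor of Gas6 and not of Pros1, so those genes are not an established ligand and receptor. Cxcl12 was higher in neurons, and Cxcr4 was not called (1.33 ± 0.243 and 0.862 ± 0.468 TPM).

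Related genes of the same family were compared in 21 pairs, the member known from neurons, or the more widely expressed one, being first. In 6 pairs the first was called higher in neurons and the second higher in microglia. Among them were Hk1 and Hk3, Slc2a3 and Slc2a5, Prkcb and Prkcd, and Celf4 and Celf2. Over all genes tested, 30.3% were called higher in neurons and 10.2% higher in microglia, and these pairs too were chosen with earlier results known. Slc2a5, a fructose transporter, was at 0.09, 0.44, 1.15, 0.24 and 0.92 TPM in neuron libraries 1 to 5 and at 176, 172, 241, 379.6 and 248 TPM in microglia libraries 1 to 5, against 3.32 to 9.07 and 0.37 to 2.87 TPM for Slc2a3, the neuronal glucose transporter, whose call was lost after quantile normalization. Prkcd, a protein kinase C, was 10.1-fold higher in microglia, and Prkcb was 2.31-fold higher in neurons on the TPM scale and not called after either scaling. In other pairs the neuronal member alone was called: Snap25 was called and Snap23 was not (20.1 ± 1.99 and 33.2 ± 1.92 TPM, -0.70), and so it was for Vamp2 and Vamp8 (-0.98), Pfn2 and Pfn1 (-0.99), and Eno2 and Eno1. Snap23, Vamp8 and Pfn1 were called higher in microglia after both scalings, and Eno1 after neither.

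**Figure D5:**
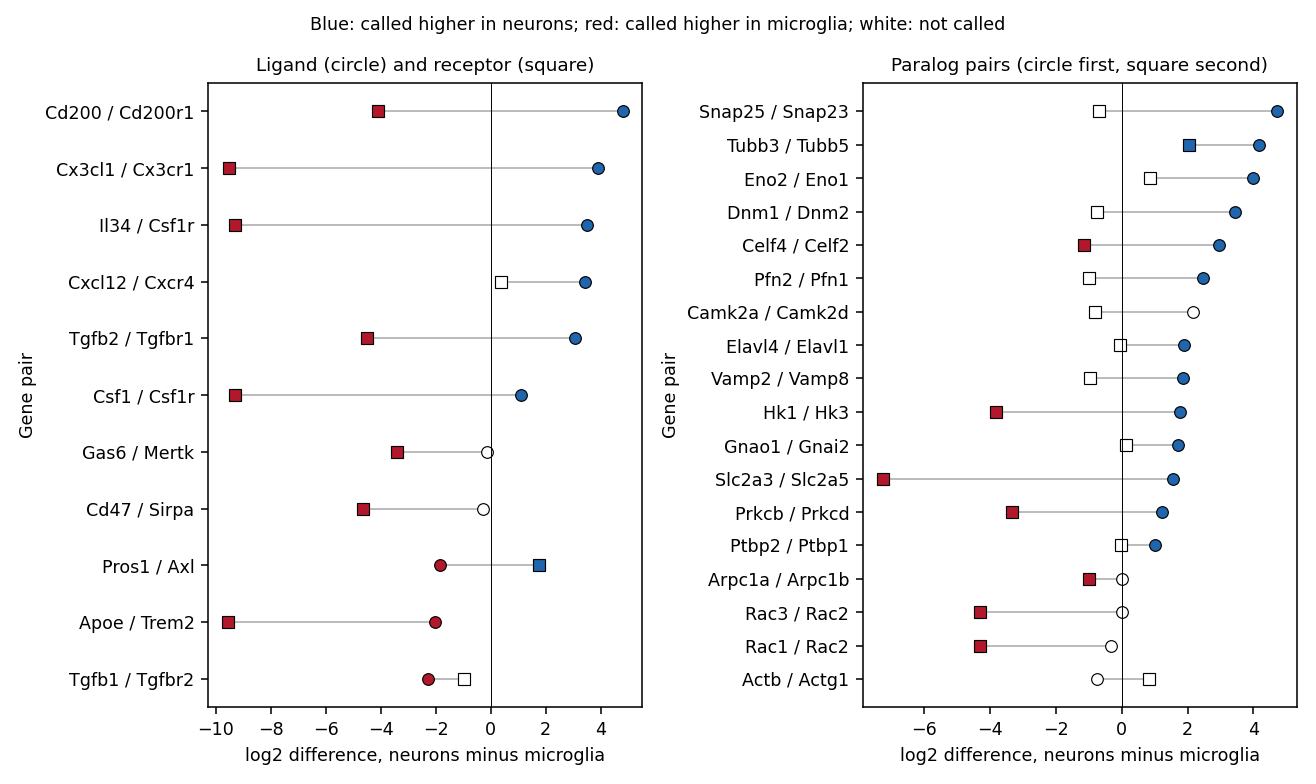
Ligand and receptor pairs (left, 11) and family pairs (right, 18 of 21), with the log2 difference, neurons minus microglia, on the x axis for the first gene (circle) and the second (square), filled by call. Cx3cl1 with Cx3cr1 and Il34 with Csf1r are spread widest among ligand pairs, and Slc2a3 with Slc2a5 among family pairs.

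Glycolytic genes showed different enzyme forms. Of 17 genes 9 were higher in neurons (5 and 7 after the scalings) and 3 in microglia, namely Hk2, Hk3 and Ldhb. Hk1, the common brain hexokinase, was at 22, 18.2, 18.5, 18.4 and 19.1 TPM in neurons and 4.09, 7.03, 3.56, 5.63 and 5.13 TPM in microglia. Hk2 was at 0 to 0.27 TPM in neurons and 12.2 to 25 TPM in microglia, and Hk3 at 0 to 0.06 and 10.4 to 18.1 TPM (17.6-fold and 14.2-fold). The groups did not overlap for any of the 3 hexokinases, nor for Ldhb, a lactate dehydrogenase subunit (403 ± 87.8 and 1262 ± 250.3 TPM). The same held for 55.0% of all genes tested. Eno2, neuronal enolase, was 15.8-fold higher in neurons. Nuclear-encoded genes of oxidative phosphorylation were higher in neurons for 14 of 27 on the TPM scale and for 3 and 7 after median-of-ratios scaling and quantile normalization, with 0 higher in microglia in each. Cox6a1, a subunit of cytochrome c oxidase, was at 19356, 24510.3, 2859, 3269.9 and 9769.6 TPM in neuron libraries 1 to 5 and at 4979.7, 4897, 1532, 967 and 2555 TPM in microglia libraries 1 to 5; the groups overlapped, and the gene was no longer called without neuron 1 (1.48) or 2 (1.39) or microglia 3 (1.6) or 4 (1.44), where adjusted p was 0.0536 to 0.0698. Of 17 proteasome core genes the one called was Psmb8, a subunit of the immunoproteasome, at 133 ± 53 TPM in neurons and 366 ± 73.5 TPM in microglia; without neuron 3 or 4, microglia 1, microglia 1 and 2, or the libraries numbered 3 and 4 there were 2 higher in microglia, and without the libraries numbered 1 and 2 another 3 were higher in neurons.

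Immediate early genes, which respond to activity and to tissue handling, went both ways. Of 19 tested 6 were higher in neurons and 7 in microglia (4 and 11 after median-of-ratios scaling, 4 and 10 after quantile normalization). Of all genes tested, 30.3% were higher in neurons and 10.2% in microglia, so the count in neurons was near the share of all genes. Junb was at 35.9, 36.6, 157, 117 and 23.5 TPM in neuron libraries 1 to 5 and at 379.9, 392, 1027, 683 and 338 TPM in microglia libraries 1 to 5, and Zfp36, which destabilises cytokine mRNA, at 29.6, 23.8, 77.4, 83.7 and 20.9 TPM in neuron libraries 1 to 5 and at 346, 273, 885, 559 and 273 TPM in microglia libraries 1 to 5. Libraries 3 and 4 were the highest of each group for both genes. Fos was at 31.5, 26.5, 131, 193 and 17.4 TPM in neuron libraries 1 to 5 and at 257, 220.3, 899, 473 and 72.6 TPM in microglia libraries 1 to 5; its groups overlapped, and it was not called without the libraries numbered 1 and 2 (difference -2.02, adjusted p = 0.148). Klf2, a factor of flow-exposed endothelium, was 12.7-fold higher in neurons, and Nr4a1 3.63-fold. Arc, a synaptic immediate early gene, was at 31.2, 40.4, 3.67, 7.81 and 11.2 TPM in neurons and 8.05, 8.9, 0.85, 0.04 and 4.51 TPM in microglia and was no longer called without neuron 1 (1.61) or 2 (1.52) or microglia 3 (1.62) or 4 (1.41). Dusp1 was high in libraries 3 and 4 of both groups, at 137, 91.4, 364, 474 and 72.4 TPM in neuron libraries 1 to 5 and at 168, 152, 517, 316 and 62.8 TPM in microglia libraries 1 to 5 (adjusted p = 0.837).

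Few of the genes that write, erase or read DNA methylation were called. Of 20 tested 3 were higher in neurons and 2 in microglia (median 0.42, near the 0.48 of all genes, and -0.04 and -0.09 after the scalings). Among all genes tested the shares were 30.3% and 10.2%. Uhrf1, which guides DNMT1 to replicated DNA, was at 3.38, 2.58, 3.76, 5.45 and 3.6 TPM in neuron libraries 1 to 5 and at 0.28, 0.11, 0.11, 0.19 and 0.21 TPM in microglia libraries 1 to 5 (3.96-fold, adjusted p = 1.37e-07). Mbd2, a reader, and Tdg, which excises oxidised bases, were at 27.4 ± 1.65 and 16.4 ± 3.96 TPM in neurons and 11.8 ± 1.51 and 6.76 ± 0.742 TPM in microglia, and neither was called after the scalings. Idh2, which makes the Tet cofactor 2-oxoglutarate, was 2.35-fold higher in microglia, and Dnmt3a was at 5.44, 4.28, 6.03, 6.17 and 6.17 TPM in neurons and 11.7, 9.98, 13.7, 14.3 and 11.9 TPM in microglia. Dnmt3a did not overlap between groups, yet its difference of -1.01 fell just under 2-fold without neuron 1 (-1, when rounded) or 2 (-0.93) or microglia 3 (-0.97) or 4 (-0.95). Tet1, Tet2 and Tet3 were not called, with differences of 0.53, -0.15 and 0.36, and nor was Dnmt1 (0.81). After both scalings the value of Tet3 was below 0. Without the libraries numbered 1 and 2 the counts were 5 higher in neurons and 2 in microglia, and without those numbered 3 and 4 they were 2 and 1.

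Splicing regulators, proteins that steer the choice of exons, held 16 genes higher in neurons and 3 higher in microglia among 34 tested (12 and 6 after median-of-ratios scaling, 11 and 5 after quantile normalization). Among all genes tested 30.3% were higher in neurons and 10.2% in microglia. Rbfox3, the antigen known as NeuN, was at 26.3, 31.5, 24.4, 16.5 and 36.9 TPM in neuron libraries 1 to 5 and at 4.35, 5.25, 0.54, 1.03 and 4.78 TPM in microglia libraries 1 to 5 (7.56-fold, adjusted p = 2.07e-05). Celf3 and Celf4 were 10.4-fold and 7.78-fold higher in neurons, and Celf4 was lower in libraries 3 and 4 of both groups. Elavl2, an RNA-binding protein of neurons, was at 4.97 to 5.58 TPM in neurons and 0.02 to 0.81 TPM in microglia, and Srrm3, which promotes the inclusion of neuronal microexons, at 7.38 to 22 and 0.01 to 2.09 TPM. Neither gene overlapped between groups, which held for 55.0% of all genes tested. The 3 higher in microglia were Qk (167 ± 27.2 against 468 ± 86.9 TPM), Mbnl1 (38.7 ± 8.21 against 98.8 ± 16.5 TPM) and Celf2, a relative of Celf4. Celf2 was at 23.1, 13.1, 35.1, 29.7 and 38 TPM in neuron libraries 1 to 5 and at 49.9, 46.1, 60.2, 83.5 and 64.1 TPM in microglia libraries 1 to 5; its difference of -1.16 fell under 2-fold without neuron 2 (-0.92) or without the libraries numbered 1 and 2 (-0.99). There were 5 higher in microglia without neuron 3, neuron 4 or microglia 2, and 5 without microglia libraries 1 and 2. Ptbp1, which holds neuronal exons back in other cells, overlapped between groups at 34 ± 9.48 TPM in neurons and 34.7 ± 11.1 TPM in microglia (adjusted p = 0.97), and its neuronal relative Ptbp2 was at 13.2 ± 2.21 and 6.24 ± 2.33 TPM. Ptbp2 lay at the threshold of 1 and was not called after either scaling or when any of neurons 1, 3 or 4 or microglia 2, 4 or 5 was left out (0.92 to 0.97).

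Gene spans were set beside the calls, as a description. Gene spans over 100 kb in the annotation were found for 1765 of 12588 tested genes, 763 of 3813 genes higher in neurons and 168 of 1285 genes higher in microglia (13.1%). Median spans were closer, at 24.1, 25.2 and 22.7 kb. Among differences of at least 8-fold the shares over 100 kb were 17.3% for neurons and 8.8% for microglia.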

How the data were processed

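PolyA RNA-seq libraries of neurons and microglia (5 each) were compared. The deposited table gives TPM per gene; per the submitters' processing notes, which name no order or role, the authors used RSEM 1.2.28, DESeq2 1.36.0, STAR 2.7.1a and Trim Galore 0.6.4 with mm10. Per the labels' protocols, cDNA was amplified by PCR before fragmentation. The labels give sequencing depth as a study average alone and TPM keeps none, so no counting error is given, and strandedness of the counting is not given in the sources used here.

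Differences were computed on log2(TPM + 1), pseudocount 1, with limma 3.58.1 (variance trend; R 4.3.3) on the 10 libraries, for genes at 1 TPM or more in 5 libraries, with Benjamini-Hochberg adjustment over all 12594 genes. The procedure was tested on simulated data with independent noise in each library and few genes changed. Deviations shared by library number and a shift of most genes were thus not covered by it. Summaries and figures used Python 3.11.15, numpy 2.4.6, pandas 2.3.3 and matplotlib 3.10.9. Coordinates are from GENCODE vM21 (mm10), which matched 20573 of 20610 genes. Of the table's rows, 63 share a symbol with another row.

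Named genes were 4 markers, the 15 called genes with the largest difference each way whose groups did not overlap, both genes of 32 pairs, and per list up to 6 called members with the largest difference, called members against the list's majority and up to 3 with the highest mean; the DNA methylation and splicing lists were eligible as a whole. Genes named because they escaped a list's direction (Irak1, Irak3, Traf6, Fli1, Tal1, Irf1, Slc12a2) were picked after their values were seen, as was Sst for its promoter. Members, 41 lists and pairs were chosen with earlier results of these data known. Same-numbered libraries deviated together: the correlations of deviations from group means were 0.221 to 0.394 across genes for the 5 numbers, which met the rule set for pairing (every one over 0.1), although the labels do not say what a number stands for. Correlations between numbers 1 and 2 (0.246 and 0.289) and between 3 and 4 (0.303 and 0.349) lay in the same range, and 9 of 10 libraries correlated best with their own number. These values thus show a split of 1 and 2 from 3 and 4 as well as shared deviations by number, and do not establish a paired design. Alternatives were other pseudocounts, filters, scalings (median of ratios, quantile), weights, a fit of all 15 libraries, a replicate block and libraries left out. Some members of the lists and pairs are not reported here by name.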

Additional observations from a re-analysis of the deposited data

Results flagged for a closer look

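In groups of 5 libraries, 778 sets of values were examined for 1 library far from the other 4, and 34 stood out (4.37%), close to the 1 in 20 that chance gives. Each value below is in TPM and is the highest of its group unless stated.

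Among neuron libraries, number 5 stood apart for Ly6c1 (31922), Gnao1 (32.1), Dnm1 (43.6), Sst (367), Cd59a (303) and Celf5 (5.38). Neuron 4 did so for Rac2 (16.7), Adora3 (0.05), Nrxn3 (41.7) and the sum of red blood cell precursor markers (1800.3), and neuron 3 for Cd55 (14.1) and Ackr1 (22.5). Neuron 2 stood apart for the microglial genes Csf1r (3.35), Ly86 (8.73), Tlr13 (0.08) and Cst7 (1.67), and neuron 1 for Hk1 (22.0), Ccl9 (0.94) and Esrp1 (0.08). Several of these levels, such as those of Tlr13, Adora3 and Esrp1, lie near 0.

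Among microglia libraries, number 2 stood apart for Ccnd2 (72.5), Axl (7.62), Tac2 (1.02) and Zbtb38 (24.4). Microglia 3 did so for Gja1 (17.5), Grin2b (9.76), Adora2b (4.4) and the sum of border macrophage markers (2015), and it was lowest for Cacna2d3 (0.03). Microglia 4 stood apart for Rac2 (140.4), Tet1 (3.49) and Esrp2 (0.34), and microglia 5 for Rac3 (39.0) and Kcnk1 (7.9). Microglia 1 was lowest for Tra2a (12.3). Rac2 was the one gene for which the library of the same number, 4, stood apart in both cell types.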

How the results depend on the processing

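Of 306 named genes called, 259 were called in every one of 22 alternatives that tested them, and no called difference changed sign. Scaling cost most, with 29 calls lost under median-of-ratios scaling and 33 under quantile normalization. The count of genes higher in neurons, 3815, became 2394 under quantile normalization and 2417 with a filter of 5 TPM, which tested 8505 genes. The count higher in microglia, 1285, became 2003 under median-of-ratios scaling. The shift of all genes is part of both scalings by construction. Leaving out 1 library gave 3709 to 3938 genes higher in neurons and 1247 to 1356 higher in microglia. With the replicate number as a block, the counts were 3827 and 1298, and no named call was lost; 3 were gained, and the number of oligodendrocyte markers higher in microglia rose from 5 to 9. Without the libraries numbered 1 and 2 the counts were 4253 and 1321, and without those numbered 3 and 4 they were 3468 and 1315; these removals, and that of microglia libraries 1 and 2, were chosen after seeing the data. TPM keeps no depth, so the counting error of genes near 1 TPM is unknown.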
